A study of Mus musculus with 8 samples.

Results

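Chemokine ligands and chemokine receptors were examined in cultured mouse macrophages as a gene family chosen by symbol. The members were all symbols starting with Ccl, Cxcl, Ccr, Cxcr, Xcr or Ackr followed directly by a digit, together with Cx3cl1, Cx3cr1 and Ccrl2. This gave 62 of the 24421 gene symbols counted, of which 38 were ligands, 19 signalling receptors and 5 atypical receptors. Of these, 27 had enough counts to be tested (18 ligands, 8 signalling receptors and 1 atypical receptor) and 35 did not. The cells were bone marrow-derived macrophages (BMDM), grown in culture from bone marrow and exposed to interleukin 4 (IL-4), the cytokine of type 2 responses, for 24 h. In 4 libraries (CKO, replicates 2, 6, 7 and 8) the cells came from OPA1f/f; Lyz2-Cre mice, in which Cre recombinase is made from the Lyz2 locus in myeloid cells. In the other 4 (FLOX, replicates 3, 4, 6 and 7) the donors were OPA1f/f mice lacking that driver. Both groups thus carried the floxed Opa1 alleles and both had received IL-4, so each value compares genotypes under IL-4, and the deletion and the Cre driver cannot be told apart. Opa1 encodes a GTPase of the inner mitochondrial membrane. How old the mice were, and whether libraries of a group came from separate mice, is information that the sources used here do not give. The p-values therefore set the difference between groups against the spread between these libraries and may not extend to other mice.

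Chemokines are small secreted proteins that steer the migration of leukocytes along gradients. They are sorted into CC, CXC and CX3C classes by the spacing of conserved cysteines, and they act through receptors coupled to inhibitory G proteins, while atypical receptors bind chemokines without that signal and remove or present them. Macrophages are a main source of CC chemokines: the monocyte chemoattractant proteins recruit monocytes through CCR2, interferons induce the ligands of CXCR3, and IL-4 is known to induce ligands of CCR3 and CCR4.

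Between 11764855 and 15592868 read pairs per CKO library and between 13770002 and 18939948 per FLOX library were assigned to genes. Opa1, counted over the whole gene and so without resolving the floxed part, stood at 94.6, 98.6, 105 and 103 CPM in CKO, against 104, 114, 108 and 130.4 CPM in FLOX and did not pass the test (edgeR log2 fold change -0.19 ± 0.074 SE, adjusted p = 0.0544). Lyz2, which holds the Cre insertion, averaged 2030.5 ± 251 CPM in the CKO libraries and 7439 ± 597 CPM in the FLOX libraries (SD, 4 libraries a group) and fell (edgeR log2 fold change -1.87 ± 0.10 SE, adjusted p = 1.05e-07). The extraction protocol in the labels speaks of islets, but 7 of 8 islet markers had 0 counts in every library and all 7 macrophage markers passed the filter (summed level 4928 to 5537 CPM in CKO and 6011 to 6264 CPM in FLOX). Of the markers of other blood cells, Cd3e, Cd3g, Cd8a, Ncr1, Pax5, Epx, Fcer1a and Mcpt8 had no counts in any library. Others of the same lists were detected, among them Csf3r at 114 to 139.6 CPM in CKO and 215 to 312 CPM in FLOX, Siglecf at 3.52 to 5.18 CPM in CKO and 2.54 to 3.86 CPM in FLOX, S100a9 at 1.60 to 4.36 CPM in CKO and 0.710 to 1.40 CPM in FLOX and Cd4 at 0.593 to 0.986 CPM in CKO and 1.42 to 2.32 CPM in FLOX. The 5 B cell markers summed to 1.35 to 1.91 CPM in CKO and 0.497 to 1.24 CPM in FLOX, and the 1 tested was higher in CKO. The summed level of the dendritic cell markers was 2.26 to 4.25 CPM in CKO and 2.27 to 3.26 CPM in FLOX. Among CKO libraries, replicate 2 lay closest to FLOX for 13 of the 23 chemokine genes that passed the test, and among FLOX libraries replicate 6 lay closest to CKO for 13 of them. Over all 5231 genes that passed, the shares were 61.1% and 40.4%.

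Most of the testable chemokine genes differed between the genotypes, in both directions. Of the 27 tested members, 15 rose and 8 fell in CKO (edgeR quasi-likelihood test, adjusted p below 0.05), while 4 did not pass. Over all 11519 genes tested, 45.4% passed, 23.8% as higher and 21.6% as lower in CKO. More than 2-fold rises numbered 10 among the members, against 4.67% of all tested genes, and more than 2-fold falls numbered 4, against 1.17%. For 22 members no CKO library lay within the FLOX range of CPM or the reverse, against 42.7% of all tested genes. CPM are counts relative to the library size, which was scaled by edgeR's TMM factors. The median log2 fold change was 0.69 over the tested members and -0.019 over all tested genes. The median of its absolute size was 1.03 for the members and 0.23 over all genes tested. These counts describe the members that passed the filter, and Cx3cl1, Cxcl2, Cxcr2 and Cxcr3 were past its CPM cutoff in all CKO libraries but in 2, 3, 3 and 3 FLOX libraries. In bulk RNA, fewer cells of a type and less RNA per cell cannot be told apart.

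**Figure D1:**
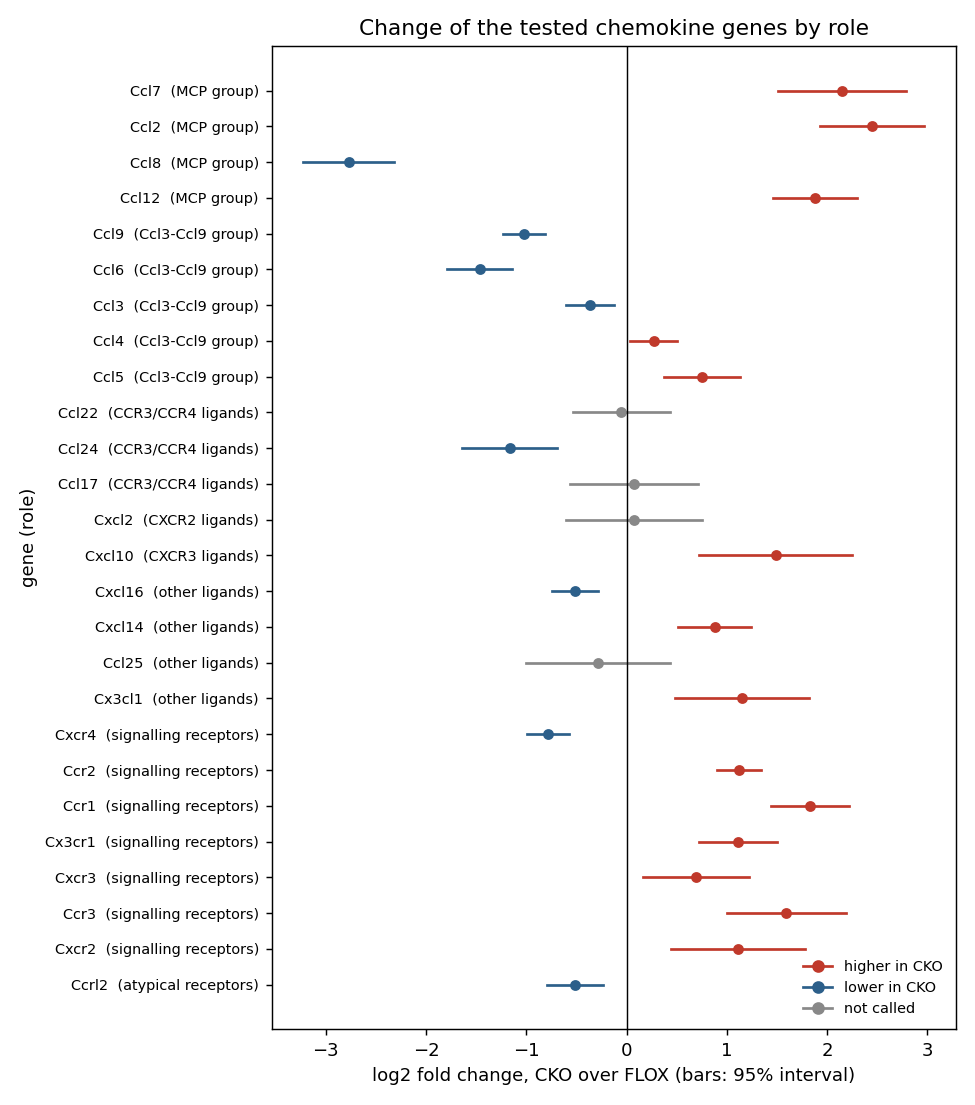
Log2 fold change, CKO over FLOX, of 26 tested chemokine genes, grouped by role, with the 95% interval of each as a horizontal line; colours mark genes higher, lower or not called. Ccl2 has the highest point (2.45) and Ccl8 the lowest (-2.77), and the signalling receptors shown other than Cxcr4 lie right of 0.

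The monocyte chemoattractant protein (MCP) group split, with 3 members far higher and 1 far lower in CKO. Ccl2 encodes the main ligand of CCR2, the receptor that brings monocytes out of the marrow and into tissue. It stood at 204, 353, 408 and 426 CPM in CKO, against 59.2, 74.3, 63.2 and 58.5 CPM in FLOX. The groups did not overlap: even CKO replicate 2, the lowest of its group, was above every FLOX library. Ccl2 rose 5.46-fold (edgeR log2 fold change 2.45 ± 0.21 SE, adjusted p = 1.48e-05). Ccl7, a second CCR2 ligand, was at 226, 378, 536 and 486 CPM in CKO, against 84.0, 119, 82.4 and 82.0 CPM in FLOX, again without overlap, and rose 4.43-fold (edgeR log2 fold change 2.15 ± 0.26 SE, adjusted p = 0.000185). Ccl12, a mouse CCR2 ligand of the same group, was at 14.5, 20.1, 19.4 and 25.0 CPM in CKO, against 5.61, 5.82, 6.16 and 3.90 CPM in FLOX and rose 3.67-fold (edgeR log2 fold change 1.88 ± 0.17 SE, adjusted p = 3.76e-06). All 3 were lowest, among CKO libraries, in replicate 2.

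Ccl8 moved the other way. It stood at 1.34, 0.923, 1.36 and 1.28 CPM in CKO, against 9.53, 9.76, 6.53 and 8.02 CPM in FLOX, so that each FLOX library held more than each CKO library. The fall was 6.84-fold (edgeR log2 fold change -2.77 ± 0.19 SE, adjusted p = 5.22e-07) and rested on 14 to 22 counts per CKO library. Mouse CCL8 is known as a ligand of CCR8, whose gene had 0 counts in all 8 libraries, whereas human CCL8 is a ligand of CCR2. The summed level of the 4 genes was 446 to 965 CPM in CKO and 152 to 209 CPM in FLOX.

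All 4 genes lie together on chromosome 11 of mm10, in the order Ccl2 (82035571 to 82037453), Ccl7 (82045712 to 82047525), Ccl12 (82101845 to 82103400) and Ccl8 (82115185 to 82116799). The eosinophil chemokine gene Ccl11, between Ccl7 and Ccl12, had at most 1 count in any library. None of the 4 genes had exons overlapped by another annotated gene or shared a run of 50 bases with another transcript. Ccl12 and Ccl8 follow each other on 1 strand and moved oppositely, and their promoters (250 bases before to 50 after the start, RefSeq, GRCm38.p6) are therefore shown.
Ccl12 (chr11:82101595-82101894, plus strand): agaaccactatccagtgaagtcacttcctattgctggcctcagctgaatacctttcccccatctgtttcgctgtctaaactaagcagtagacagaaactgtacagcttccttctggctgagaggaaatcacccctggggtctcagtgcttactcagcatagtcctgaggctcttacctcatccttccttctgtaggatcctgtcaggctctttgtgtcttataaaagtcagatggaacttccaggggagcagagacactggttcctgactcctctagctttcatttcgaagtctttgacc
Ccl8 (chr11:82114935-82115234, plus strand): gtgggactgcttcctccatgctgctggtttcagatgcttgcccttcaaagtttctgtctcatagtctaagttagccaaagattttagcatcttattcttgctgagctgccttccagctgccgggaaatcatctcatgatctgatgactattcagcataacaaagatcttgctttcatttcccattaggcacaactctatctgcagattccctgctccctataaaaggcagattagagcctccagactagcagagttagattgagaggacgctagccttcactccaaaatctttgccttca
Capitals would mark matches, on either strand, to 5 motifs searched: the interferon-stimulated response element (GAAA, any 2 bases, GAAA), the gamma-activated site (TTC, any 3 bases, GAA), its wider form bound by STAT6 (TTC, any 4 bases, GAA), the kB site (GGG, any 2 bases, TTTCC) and the AP-1 site (TGANTCA). Neither window holds these letters. Only these letters were searched, and other forms of the sites, such as other kB sites, were not looked for. Of all 32817 promoters of the same length, the motifs in that order are in 3.43%, 8.29%, 6.94%, 1.63% and 7.81%.

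In the group of Ccl3, Ccl4, Ccl5, Ccl6 and Ccl9, inflammatory CC chemokines encoded side by side, the 2 most abundant ones fell. Ccl9 (MIP-1 gamma), a CCR1 ligand made in quantity by mouse macrophages, was at 1528, 1258, 1350.4 and 1316 CPM in CKO, against 3056, 2902, 2446 and 2695 CPM in FLOX. No libraries overlapped, and Ccl9 fell 2.04-fold (edgeR log2 fold change -1.03 ± 0.085 SE, adjusted p = 2e-06). Its neighbour Ccl6, another CCR1 ligand, stood at 257, 169.5, 176 and 207 CPM in CKO, against 631, 593, 477 and 534 CPM in FLOX. Again the highest CKO library, replicate 2, was below all FLOX libraries, and the fall was 2.76-fold (edgeR log2 fold change -1.47 ± 0.13 SE, adjusted p = 5.86e-06). Ccl3 (MIP-1 alpha), a ligand of CCR1, changed less: 54.2, 57.7, 72.7 and 65.1 CPM in CKO, against 77.0, 93.4, 75.4 and 76.7 CPM in FLOX (edgeR log2 fold change -0.37 ± 0.10 SE, adjusted p = 0.00870). FLOX replicate 4 was the highest, and the lowest FLOX library lay just above the highest CKO library.

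The remaining 2 genes of the group rose. Ccl5 (RANTES), which attracts T cells and monocytes and is interferon-inducible, was at 7.29, 6.26, 5.42 and 5.26 CPM in CKO, against 4.28, 3.40, 3.78 and 2.77 CPM in FLOX and rose 1.68-fold (edgeR log2 fold change 0.75 ± 0.16 SE, adjusted p = 0.00180) without overlap. Ccl4 (MIP-1 beta), an inflammatory chemokine of macrophages, was at 23.7, 26.6, 29.6 and 30.3 CPM in CKO, against 22.3, 26.3, 21.4 and 21.6 CPM in FLOX. CKO replicate 2 lay within the FLOX range, and the rise was small (edgeR log2 fold change 0.27 ± 0.10 SE, adjusted p = 0.0351). That call was lost without CKO replicate 7 (edgeR adjusted p = 0.0883) or 8 (0.0939) and without FLOX replicate 3 (0.0593), 6 (0.0875) or 7 (0.0727), and adjusted p ran from 0.00967 to 0.0939 over 16 alternatives. The 5 genes lie within 139 kb of chromosome 11 in the order Ccl5, Ccl9, Ccl6, Ccl3 and Ccl4. Those in the middle fell and those at both ends rose.

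The promoters of Ccl9 and Ccl6, adjacent genes on the minus strand that fell together, are shown in the direction of transcription.
Ccl9 (chr11:83578587-83578886, minus strand): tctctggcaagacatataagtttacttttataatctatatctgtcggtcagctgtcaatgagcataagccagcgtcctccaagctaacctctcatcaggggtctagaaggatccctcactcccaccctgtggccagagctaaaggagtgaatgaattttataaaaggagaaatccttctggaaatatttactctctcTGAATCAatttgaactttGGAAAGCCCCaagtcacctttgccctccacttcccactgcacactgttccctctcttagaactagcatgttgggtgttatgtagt
Ccl6 (chr11:83593038-83593337, minus strand): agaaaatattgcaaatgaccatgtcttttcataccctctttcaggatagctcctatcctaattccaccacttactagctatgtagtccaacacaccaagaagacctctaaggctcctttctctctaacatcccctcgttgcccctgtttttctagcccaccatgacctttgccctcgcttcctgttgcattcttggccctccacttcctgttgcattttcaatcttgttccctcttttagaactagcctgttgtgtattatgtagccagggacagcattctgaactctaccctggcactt
Capitals mark an AP-1 match (TGAATCA, bases 198 to 204) and a kB match on the other strand (GGAAAGCCCC, bases 216 to 225) in the Ccl9 window. The Ccl6 window holds none of the 5 motifs.

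**Figure D2:**
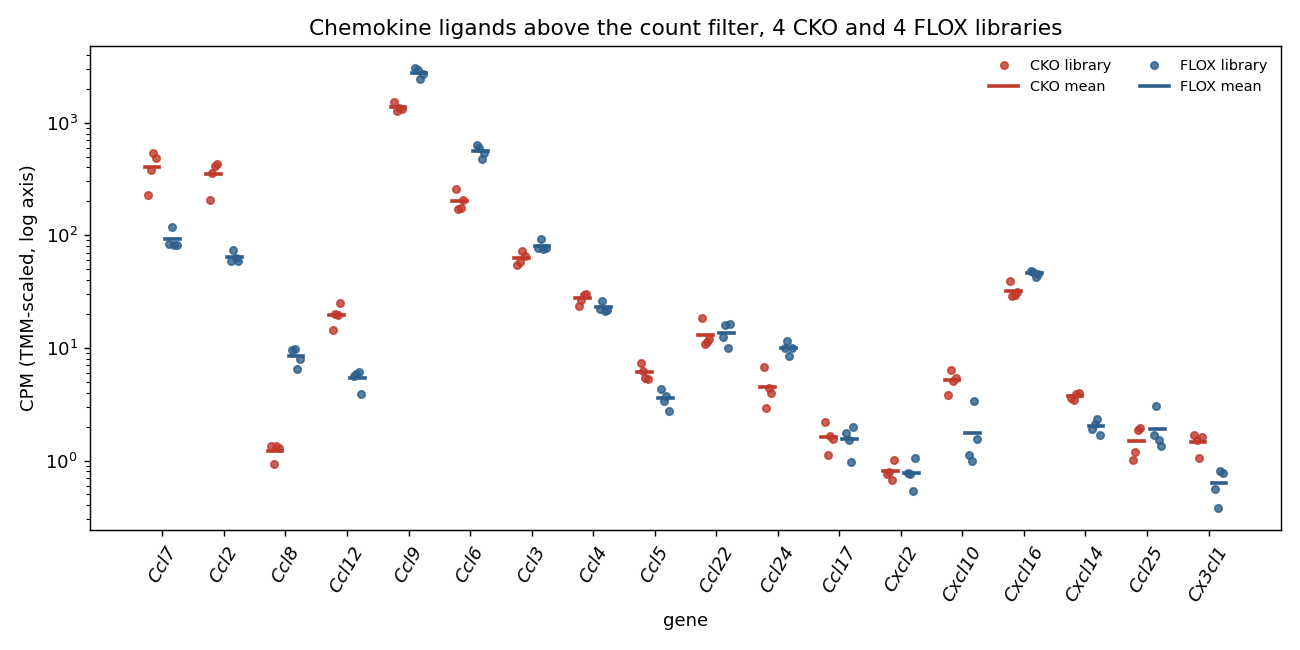
CPM (TMM-scaled, log axis) of the 18 tested ligands, with 1 point per library and a line at each group's mean; CKO is in red to the left and FLOX in blue to the right of each gene. Ccl2, Ccl7 and Ccl12 are higher in CKO and Ccl8, Ccl9 and Ccl6 lower, without overlap, whereas Ccl17, Ccl22, Ccl25 and Cxcl2 overlap.

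The most abundant ligand transcripts differed in level between the genotypes. CPM were divided by the kb of all annotated exons of a gene, so that different genes can be compared approximately. The annotation behind the counts is not known and expressed isoforms were not examined, so comparisons between genes depend on the length used. On this scale of CPM per kb, Ccl9 was at 448 ± 38.2 in CKO and 911 ± 86.7 in FLOX, Ccl6 at 113 ± 22.3 in CKO and 311 ± 37.7 in FLOX, Ccl7 at 508 ± 171 in CKO and 115 ± 22.7 in FLOX and Ccl2 at 306 ± 88.5 in CKO and 56.1 ± 6.40 in FLOX (SD, n = 4 each). Ranks were taken by group mean on this scale among all 61 members with an exon length. Ccl9 ranked 2 in CKO and 1 in FLOX, and Ccl7 ranked 1 in CKO and 4 in FLOX. In CPM without division by length, Ccl9 was above Ccl7 in every CKO library (1258 to 1528 CPM against 226 to 536 CPM). Per kb, Ccl9 was also above Ccl7 in CKO replicate 2 (502 against 283 CPM per kb). The MCP group made up 38.2 to 59.9% of the summed level of all ligands per library in CKO and 10.8 to 14.1% in FLOX. For Ccl3, Ccl4, Ccl5, Ccl6 and Ccl9 together the share was 38.6 to 59.0% in CKO and 83.7 to 87.1% in FLOX. The sum itself overlapped between the groups, at 1287 to 1781 CPM per kb in CKO and 1417 to 1729.8 CPM per kb in FLOX. In CPM without division by length, the sum of all ligands did not overlap and was 2329 to 2659.9 CPM in CKO and 3255 to 4029 CPM in FLOX. Within CKO, replicate 2 had the lowest MCP share (38.2%), and the other 3 libraries had 55.7% to 59.9%.

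**Figure D3:**
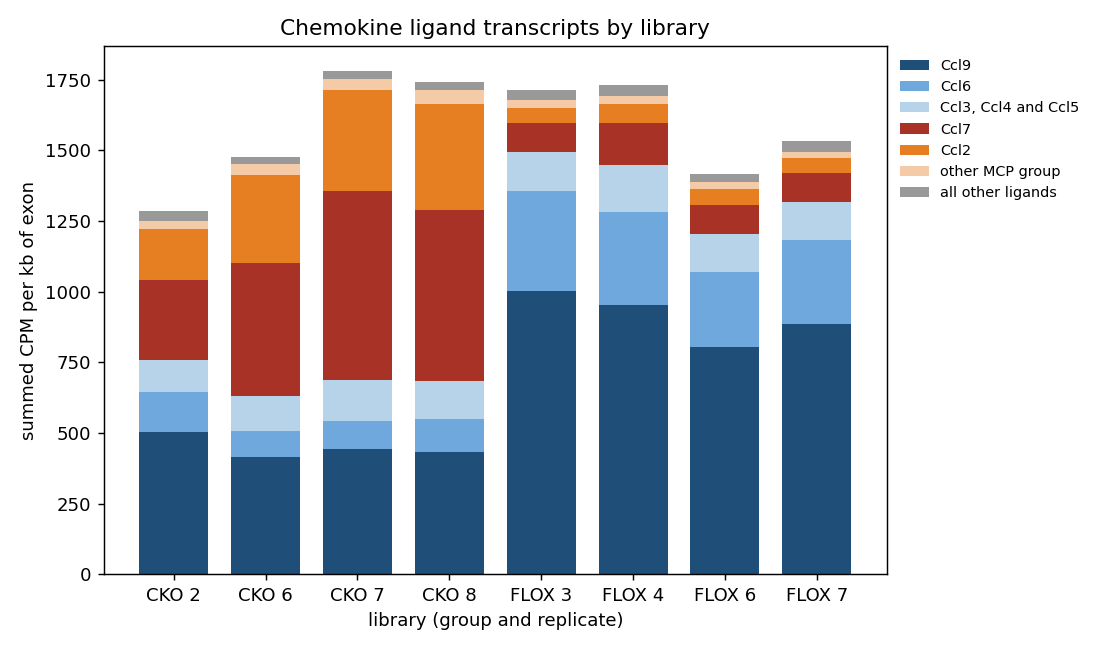
Summed level of chemokine ligand transcripts in each library, in CPM per kb of exon, stacked by gene or group; bars start at 0 and the 4 CKO libraries stand left of the 4 FLOX libraries. Ccl7 and Ccl2 (red and orange) fill more of each CKO bar, Ccl9 and Ccl6 (blues) more of each FLOX bar, and bar heights overlap between the groups on this scale, while the sum in CPM (2329 to 2659.9 CPM in CKO and 3255 to 4029 CPM in FLOX) does not.

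The ligands tied to type 2 responses did not move together. Ccl24 (eotaxin-2), which attracts eosinophils through CCR3, was at 6.71, 2.90, 4.44 and 3.98 CPM in CKO, against 9.96, 11.6, 8.48 and 9.94 CPM in FLOX. The groups did not overlap, and Ccl24 fell 2.24-fold (edgeR log2 fold change -1.16 ± 0.19 SE, adjusted p = 0.000369). Ccl22 and Ccl17 are both ligands of CCR4 on T cells. Ccl22 was at 18.5, 10.7, 11.2 and 12.1 CPM in CKO, against 12.4, 15.8, 9.88 and 16.3 CPM in FLOX and did not pass the test (log2 fold change -0.054, 95% interval -0.54 to 0.43, edgeR adjusted p = 0.846). CKO replicate 2 was the highest of all 8 libraries and the other 3 CKO libraries lay within or near the low end of the FLOX range. With CKO replicate 2 and FLOX replicate 6 both left out, Ccl22 was called lower (log2 fold change -0.36, edgeR adjusted p = 0.0417, with adjusted p from 0.0417 to 0.997 over 16 alternatives). Ccl17 stood at 2.18, 1.12, 1.66 and 1.55 CPM in CKO, against 1.75, 1.51, 0.972 and 1.99 CPM in FLOX, with overlapping groups (log2 fold change 0.073, 95% interval -0.56 to 0.71, edgeR adjusted p = 0.841). Ccl11 and Ccl26, the other CCR3 ligands listed, had at most 1 count per library. Ccl17 and Ccl22 lie on chromosome 8 on either side of Cx3cl1. The other IL-4 markers listed were also split. Of 7, Arg1 (log2 fold change 1.36, edgeR adjusted p = 5.18e-06) and Mgl2 (log2 fold change 0.41, edgeR adjusted p = 0.000434) were higher, Chil3 (log2 fold change -1.90, edgeR adjusted p = 8.68e-07), Retnla (log2 fold change -1.10, edgeR adjusted p = 7.16e-05) and Cd163 (log2 fold change -0.30, edgeR adjusted p = 0.0334) were lower, and Mrc1 and Clec10a did not pass.

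Of the interferon-inducible ligands of CXCR3, only Cxcl10 was abundant enough to test. Cxcl10 (IP-10), which attracts activated T cells, stood at 3.86, 6.39, 5.12 and 5.39 CPM in CKO, against 1.12, 0.983, 3.40 and 1.56 CPM in FLOX. Every CKO library was above every FLOX library, but FLOX replicate 6 was near the lowest CKO library, replicate 2. Cxcl10 rose 2.80-fold (edgeR log2 fold change 1.49 ± 0.31 SE, adjusted p = 0.00243), and without FLOX replicate 6 the log2 fold change was 2.08 (edgeR adjusted p = 2.11e-05, with adjusted p from 1.33e-05 to 0.0105 over 16 alternatives). Cxcl9 had 3, 1, 0 and 0 counts in CKO, against 2, 0, 1 and 2 counts in FLOX, and Cxcl11 had 1 count in each of 2 CKO libraries and 0 elsewhere. Exons of Cxcl10 overlap the antisense gene Art3 over 5.91% of its exon length, and Art3 had at most 2 counts in any library. The promoter of Cxcl10, on the minus strand of chromosome 5, is shown because it holds an interferon-type motif.
Cxcl10 (chr5:92348840-92349139, minus strand): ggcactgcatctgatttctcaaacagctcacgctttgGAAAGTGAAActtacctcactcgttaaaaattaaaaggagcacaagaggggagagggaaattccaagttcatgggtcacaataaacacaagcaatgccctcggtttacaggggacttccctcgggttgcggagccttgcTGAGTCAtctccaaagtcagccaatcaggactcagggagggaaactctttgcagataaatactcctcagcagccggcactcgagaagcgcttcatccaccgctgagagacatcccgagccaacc
Capitals mark GAAAGTGAAA (bases 38 to 47), an interferon-stimulated response element match, and TGAGTCA (bases 177 to 183), an AP-1 match. Of 20 tested members with a promoter in the table, 2 hold the interferon motif (Cxcl10 and Cxcl14), 2 the gamma-activated site (Ccl17 and Cxcl14), 1 the STAT6 form (Ccl17), 3 the kB site (Ccl9, Ccr3 and Cxcl2) and 3 the AP-1 site (Ccl9, Ccr3 and Cxcl10). A match is a description of the letters only. Other forms of the kB site were not searched, so a window without a marked kB match, such as that of Cxcl10, may still hold one.

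Ligands of the neutrophil receptor CXCR2 were near the limit of detection. Cxcl2 (MIP-2) was at 0.754, 0.791, 0.678 and 1.01 CPM in CKO, against 0.771, 0.756, 0.540 and 1.06 CPM in FLOX, with overlapping groups (log2 fold change 0.073, 95% interval -0.61 to 0.75, edgeR adjusted p = 0.853). Cxcl1, Cxcl3 and Cxcl15 had at most 1 count in any library, and Cxcl5 had none. About 5.84% of the 50-base runs of Cxcl2 also occur in Cxcl3 transcripts.

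Among the remaining ligands, 2 rose and 1 fell. Cxcl14, a chemokine of epithelia and monocyte-lineage cells, was at 3.60, 3.43, 3.88 and 3.98 CPM in CKO, against 1.89, 2.12, 2.32 and 1.70 CPM in FLOX and rose 1.84-fold (edgeR log2 fold change 0.88 ± 0.15 SE, adjusted p = 0.000403). Cx3cl1 (fractalkine), the membrane-bound ligand of CX3CR1, was at 1.68, 1.52, 1.05 and 1.62 CPM in CKO, against 0.561, 0.378, 0.810 and 0.781 CPM in FLOX and rose 2.22-fold (edgeR log2 fold change 1.15 ± 0.27 SE, adjusted p = 0.00425), on 5 to 24 counts per library. Neither overlapped between the groups. Cxcl16, a membrane-bound ligand of CXCR6 that also acts as a scavenger receptor, was at 39.3, 28.9, 29.6 and 31.2 CPM in CKO, against 48.4, 47.5, 42.6 and 45.5 CPM in FLOX. It fell 1.43-fold (edgeR log2 fold change -0.52 ± 0.094 SE, adjusted p = 0.000749), and here CKO replicate 2 was nearest to FLOX. Exons of the antisense gene Zmynd15 cover 18.3% of the exon length of Cxcl16, and Zmynd15 was at 0.922 to 1.66 CPM in CKO and 1.35 to 2.24 CPM in FLOX. Ccl25, a ligand of CCR9, was at 1.01, 1.19, 1.85 and 1.95 CPM in CKO, against 1.68, 3.03, 1.51 and 1.35 CPM in FLOX and did not pass (log2 fold change -0.29, 95% interval -1.0 to 0.43, edgeR adjusted p = 0.453).

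Among the signalling receptors Ccr1, Ccr2, Ccr3, Cx3cr1, Cxcr2 and Cxcr3 rose and Cxcr4 fell. Ccr2, the receptor for Ccl2, Ccl7 and Ccl12, was at 72.8, 64.6, 70.1 and 83.6 CPM in CKO, against 29.1, 36.5, 34.2 and 34.0 CPM in FLOX and rose 2.18-fold (edgeR log2 fold change 1.12 ± 0.090 SE, adjusted p = 1.74e-06). The lowest CKO library was well above the highest FLOX library. Ccr1, the receptor for Ccl3, Ccl5, Ccl6 and Ccl9, was at 11.3, 13.4, 14.6 and 18.0 CPM in CKO, against 3.44, 3.40, 4.48 and 4.76 CPM in FLOX. Its rise of 3.55-fold was the largest of the tested receptors (edgeR log2 fold change 1.83 ± 0.16 SE, adjusted p = 2.86e-06). Ccr3, the eotaxin receptor, was at 2.51, 2.77, 3.51 and 4.58 CPM in CKO, against 0.841, 0.908, 1.35 and 1.28 CPM in FLOX and rose 3.02-fold (edgeR log2 fold change 1.59 ± 0.24 SE, adjusted p = 0.00018). The groups did not overlap for any of these 3 genes.

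Of the 50-base runs of Ccr2, 1.91% recur in other genes. Markers of monocytes and eosinophils were read beside these receptors, and their part in the results was not tested. The monocyte markers Ly6c2 and Plac8 were under the filter, with 10, 21, 10 and 10 counts in CKO, against 4, 2, 4 and 2 counts in FLOX for Ly6c2 and 6, 18, 15 and 11 counts in CKO, against 4, 2, 2 and 5 counts in FLOX for Plac8. The summed level of the 5 monocyte markers was 935 to 1086 CPM in CKO and 1303 to 1719 CPM in FLOX, most of it S100a4. Of these markers 3 were tested, of which 1 was higher and 2, S100a4 and Chil3, were lower. Of the eosinophil markers, Epx had 0 counts in all 8 libraries and Prg2 1 count in 1 FLOX library, whereas Siglecf was higher in CKO (log2 fold change 0.55, edgeR adjusted p = 0.0196). In the list of mast cell, basophil and eosinophil markers, 2 of 8 passed the filter, of which 1 was higher and 1 lower, with a summed level of 8.97 to 10.2 CPM in CKO and 10.4 to 12.1 CPM in FLOX.

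Cxcr4, the receptor for Cxcl12 that retains cells in marrow, was the receptor of highest level per kb in both groups. It stood at 180.2, 133, 156 and 146 CPM in CKO, against 269, 284, 249.99 and 258 CPM in FLOX, without overlap, and fell 1.72-fold (edgeR log2 fold change -0.79 ± 0.085 SE, adjusted p = 1.34e-05). Its ligand gene Cxcl12, a stromal product, had 4, 4, 8 and 9 counts in CKO, against 7, 7, 16 and 6 counts in FLOX. Cx3cr1, the fractalkine receptor of monocytes and resident macrophages, was at 4.86, 5.08, 3.88 and 4.72 CPM in CKO, against 2.45, 2.42, 2.05 and 1.63 CPM in FLOX and rose 2.16-fold (edgeR log2 fold change 1.11 ± 0.16 SE, adjusted p = 0.000127). Cxcr3, the receptor for Cxcl10, was at 1.76, 1.58, 2.03 and 1.82 CPM in CKO, against 1.33, 0.681, 1.24 and 1.14 CPM in FLOX and rose 1.62-fold (edgeR log2 fold change 0.69 ± 0.22 SE, adjusted p = 0.0201). The call on Cxcr3 was lost without CKO replicate 7 (edgeR adjusted p = 0.0569) and without FLOX replicate 4 (0.0506), with adjusted p from 0.0173 to 0.0569 over 16 alternatives. Of 10 T and NK cell markers, 5 had no counts in any library, among them Cd3e and Cd3g, and the summed level was 1.12 to 1.66 CPM in CKO and 1.85 to 2.81 CPM in FLOX, most of it Cd4. The part of such cells in the Cxcr3 result was not tested.

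Cxcr2, the neutrophil receptor for Cxcl2, was low but higher in CKO. It stood at 3.02, 1.52, 1.91 and 2.22 CPM in CKO, against 0.701, 1.44, 1.03 and 0.781 CPM in FLOX and rose 2.16-fold (edgeR log2 fold change 1.11 ± 0.27 SE, adjusted p = 0.00540) without overlap. Some neutrophil markers were also low and higher in CKO. S100a9 was at 1.60 to 4.36 CPM in CKO and 0.710 to 1.40 CPM in FLOX. Ngp was at 0.863 to 1.76 CPM in CKO and 0.151 to 0.486 CPM in FLOX. Ltf was at 0.801 to 1.32 CPM in CKO and 0.162 to 0.454 CPM in FLOX. Of the 9 neutrophil markers in the files, 6 were tested, 3 were higher and 1, Csf3r, was lower. Ngp and Ltf were below the CPM cutoff of the filter in every FLOX library and passed it through their level in CKO, so that their calls carry no weight as a count. The summed level of the list was 124 to 152 CPM in CKO and 221 to 318 CPM in FLOX, most of it Csf3r (114 to 139.6 CPM in CKO and 215 to 312 CPM in FLOX). Elane had 0 counts in all libraries, and the part of such cells in the Cxcr2 result was not tested.

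**Figure D4:**
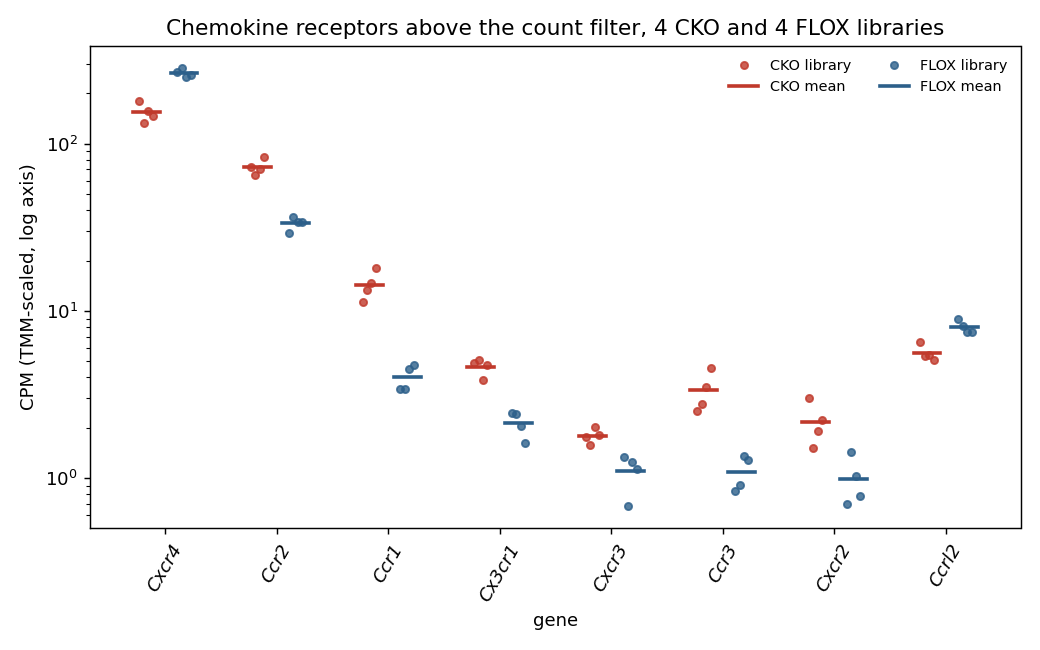
CPM (TMM-scaled, log axis) of 8 tested receptors, with 1 point per library and a line at each group's mean; CKO is in red to the left and FLOX in blue to the right of each gene. Cxcr4 and Ccrl2 are lower in CKO and the other 6 higher, and the groups overlap for none of the 8 receptors plotted.

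Atypical receptors were represented by 1 testable gene. Ccrl2, which binds chemerin and presents it to other cells and which is grouped with the chemokine receptors by sequence, was at 6.54, 5.34, 5.42 and 5.05 CPM in CKO, against 8.90, 8.09, 7.45 and 7.45 CPM in FLOX. The groups did not overlap, and Ccrl2 fell 1.43-fold (edgeR log2 fold change -0.52 ± 0.11 SE, adjusted p = 0.00282). Ackr1, a chemokine-binding receptor of red cells and venules, and Ackr3, a scavenger of Cxcl12, had 0 counts in all libraries. Ackr2, a scavenger of inflammatory CC chemokines, had 1 count in 1 FLOX library, and Ackr4, which binds Ccl19, Ccl21 and Ccl25, at most 4 counts.

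Chemokine genes lie in clusters, and Ccr1, Ccr3 and Ccr2 in a receptor cluster rose, while both ligand clusters on chromosome 11 held genes of either direction. Members were grouped by starts at most 500 kb apart. On chromosome 9 (mm10), Ccr9, Cxcr6, Xcr1, Ccr1, Ccr1l1, Ccr3 and Ccr2 lie in this order. Of these, Ccr9, Cxcr6, Xcr1 and Ccr1l1 were too low to test, with at most 3, 3, 5 and 8 counts in any library. On chromosome 11 the cluster of the MCP group (82035571 to 82305690) had 3 tested genes that rose and 1 that fell, and the cluster with Ccl9 (83525778 to 83664683) 2 that rose and 3 that fell. On chromosome 8, Cx3cl1 rose between Ccl22 and Ccl17, which did not pass the test.

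**Figure D5:**
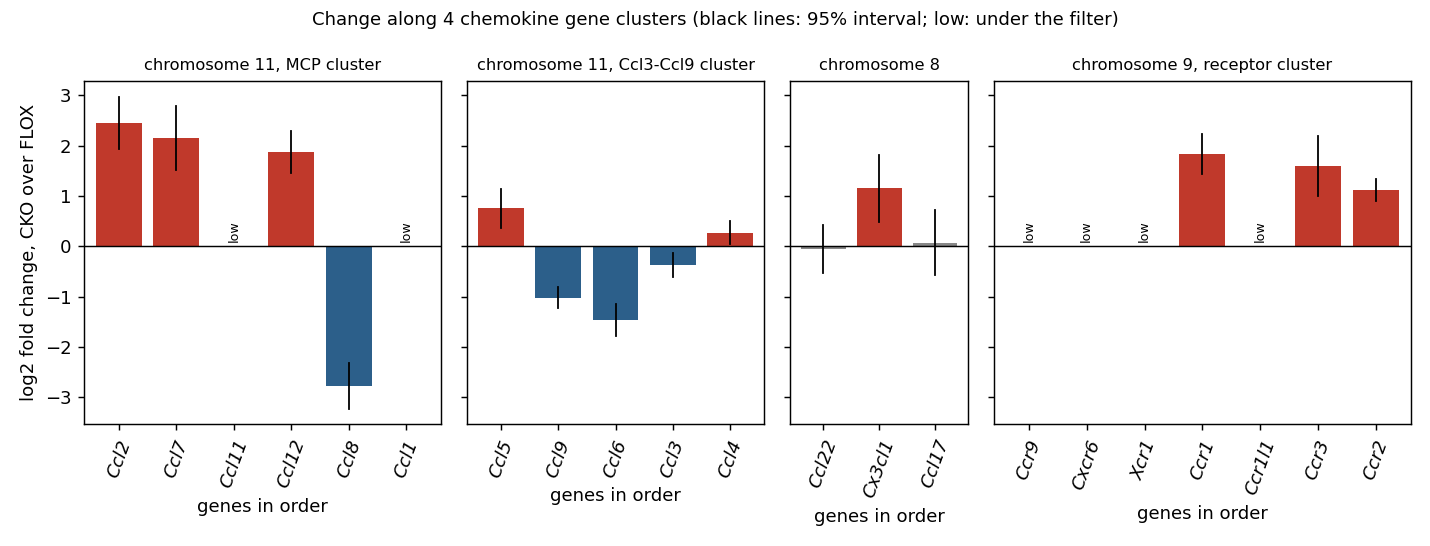
Log2 fold change, CKO over FLOX, of genes in their order along 4 clusters, with black lines for the 95% interval and the word low for genes under the filter. Red bars rose, blue bars fell and grey bars did not pass; the 3 bars of the receptor cluster are red, while both chromosome 11 clusters hold bars of both directions.

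The 35 members too low to test held most of the homeostatic chemokines, which guide cells in lymphoid tissue and epithelia. In every library 13 had 0 counts: Ackr1, Ackr3, Ccl19, Ccl20, Ccl21a, Ccl21b, Ccl21c, Ccl27b, Ccr4, Ccr8, Cxcl13, Cxcl17 and Cxcl5. A count of 0 allows a level of up to 3 counts, which is 0.162 to 0.251 CPM per library, for counting error only. That bound does not cover reads that match several genes, which may go uncounted. The share of 50-base runs that recur in other genes was 100% for Ccl21b, 98.1% for Ccl27b, 71.6% for Ccl21a, 52.0% for Ccl19 and 20.4% for Ackr1. It was 45.0% for Ccl27a, which had counts, and Ccl21c had no position. For these genes a low count does not bound the level. A further 13 had a highest count of 1 to 3: Ackr2, Ccl1, Ccl11, Ccl26, Ccr6, Ccr9, Cxcl1, Cxcl11, Cxcl15, Cxcl3, Cxcl9, Cxcr1 and Cxcr6. The remaining 9 reached 4 counts (Ackr4), 17 counts (Ccl27a), 10 counts (Ccl28), 14 counts (Ccr10), 8 counts (Ccr1l1), 6 counts (Ccr7), 16 counts (Cxcl12), 8 counts (Cxcr5) and 5 counts (Xcr1). Ccl28, a mucosal chemokine, had 1, 3, 3 and 6 counts in CKO, against 10, 8, 9 and 10 counts in FLOX, and its CPM ranges did not overlap. In a fit with no filter it was called lower (log2 fold change -1.44, edgeR adjusted p = 0.0152) and was the single call among 22 low members that could be fitted there. Among receptors of the tested ligands, Ccr4 (for Ccl17 and Ccl22) and Ccr8 (for Ccl8) had 0 counts, and Cxcr6 (for Cxcl16) and Ccr9 (for Ccl25) at most 3.

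Genes around the family moved in both directions. Pf4, a platelet chemokine whose symbol falls outside the rule, was at 34.6 to 37.7 CPM in CKO and 33.5 to 45.1 CPM in FLOX and did not pass (edgeR log2 fold change -0.082 ± 0.092 SE, adjusted p = 0.492). Ppbp had at most 5 counts and Xcl1 none. The list of G proteins, their regulators, kinases and Rac activators downstream of chemokine receptors had 40 tested members, of which 15 rose, 8 fell and 17 did not pass, at a median log2 fold change of 0.024. The smallest p-values there belonged to Pik3cg (log2 fold change 0.90, edgeR adjusted p = 6.09e-06), the lipid kinase activated by receptor G proteins, Rgs18 (log2 fold change 0.60, edgeR adjusted p = 6.34e-06), which shortens G protein signals, the phospholipase Plcb2 (log2 fold change 0.57, edgeR adjusted p = 9.76e-06) and Elmo1 (log2 fold change 0.59, edgeR adjusted p = 1.18e-05), a partner of DOCK proteins in Rac activation.

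Receptors for other chemoattractants held 15 tested members, of which 7 rose, 3 fell and 5 did not pass, at a median log2 fold change of 0.11. The complement receptor C5ar1 rose (log2 fold change 1.27, edgeR adjusted p = 4.64e-07), and so did the leukotriene receptor Cysltr1 (log2 fold change 0.87, edgeR adjusted p = 1.07e-05) and the purine receptor P2ry12 (log2 fold change 1.18, edgeR adjusted p = 4.32e-05), and Ptafr, the receptor of platelet-activating factor, fell (log2 fold change -0.86, edgeR adjusted p = 2.61e-05). Enzymes that can cut chemokines held 11 tested members, of which 4 rose, 6 fell and 1 did not pass, at a median log2 fold change of -0.46. Among them the matrix metalloproteinases Mmp13 (log2 fold change 1.37, edgeR adjusted p = 1.95e-07) and Mmp12 (log2 fold change 0.75, edgeR adjusted p = 5.33e-06) and the carboxypeptidase Cpd (log2 fold change 0.80, edgeR adjusted p = 3.37e-05) rose, and cathepsin K (Ctsk) fell (log2 fold change -1.30, edgeR adjusted p = 1.52e-06). Against 45.4% of all tested genes, 23 of 40, 10 of 15 and 10 of 11 members of these lists passed.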

How the data were processed

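RNA of 8 IL-4-treated BMDM libraries was sequenced as read pairs, per the labels' protocols. The aligner was HISAT2 2.0.5 with genome mm10 and the counter HTSeq, per the submitters' processing notes. The sources used here state neither the HTSeq version nor its annotation and strand mode, so overlapping and antisense genes are uncertain. The deposited values are raw counts per gene symbol; 66.3% to 71.7% of read pairs were assigned to genes, and the 5 unassigned classes were left out. A deposited table of all 8 libraries held the same counts under partly different names (27 genes) and was not used.

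In R 4.3.3, edgeR 4.0.16 kept 11519 genes (filterByExpr, minimum count 10, minimum total 15) and tested CKO against FLOX after TMM scaling with the robust quasi-likelihood F test. Adjusted p-values are Benjamini-Hochberg over all tested genes, with calls below 0.05. Standard errors are log2 fold changes over the root of F, with 6 degrees of freedom for 95% intervals. The test was checked on simulated counts. Libraries of a group differed by more than sampling noise (chi-square of 2.45 to 27.8 for each degree of freedom). This spread was uneven. In FLOX it was 6.45 between replicates 3 and 6, 4.51 between 4 and 7, and 15.6 to 27.8 for the other pairs. In CKO it was 7.42 to 9.63 for pairs with replicate 2 and 2.45 to 3.05 for the others. The cause of this unevenness was not tested. Alternatives were RLE scaling, other filters, DESeq2 1.42.0, limma-voom 3.58.1, left-out libraries, a replicate block and removal of the 20 most abundant genes. GENCODE M21 (GRCm38) gave positions and exon lengths of 61 of 62 members, and RefSeq (GRCm38.p6) promoters of 46. Every member was to be named, and of the surrounding lists up to 4 genes of smallest p; marker genes were named after their values were seen. Results of 1 tested member and of some marker genes are not reported here. Members and lists were chosen with earlier results of these data known.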

Additional observations from a re-analysis of the deposited data

Results flagged for a closer look

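In 3 of 54 sets of 4 libraries (27 tested members in each of 2 groups), 1 library stood far from the other 3, where chance alone gives about 1 in 20. Ccl22 was at 18.5 CPM in CKO replicate 2, against 10.7 to 12.1 CPM in the other CKO libraries. Ccl3 was at 93.4 CPM in FLOX replicate 4, against 75.4 to 77.0 CPM in the other FLOX libraries. Ccl7 was at 119 CPM in FLOX replicate 4, against 82.0 to 84.0 CPM in the other FLOX libraries. Without FLOX replicate 4, which stood apart for Ccl3 and Ccl7, the log2 fold change was -0.29 for Ccl3 (edgeR adjusted p = 0.0238) and 2.30 for Ccl7 (0.000594), with adjusted p from 0.00277 to 0.0497 for Ccl3 and from 5.01e-13 to 0.00209 for Ccl7 over 16 alternatives.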

How the results depend on the processing

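Under 16 alternatives the number of members called higher ran from 13 to 15 and of those called lower from 8 to 9; the 9th was Ccl28 with no filter and Ccl22 without CKO replicate 2 and FLOX replicate 6 together. Leaving out 1 library at a time gave 13 to 15 higher and 8 lower members, and 4273 to 5210 calls over all genes, against 5231. Of 431 refitted values of single members, 411 kept their direction and side of the threshold, 8 lost the call (Ccl4 and Cxcr3), 1 gained one (Ccl22) and 11 changed sign, each in a gene that was not called. Over the fits without 1 library, the log2 fold change ran from -0.13 to 0.24 for Ccl17, from -0.23 to 0.048 for Ccl22, from -0.41 to 0.0075 for Ccl25 and from -0.10 to 0.25 for Cxcl2, and without CKO replicate 2 and FLOX replicate 6 together it was -0.25 for Ccl17 and -0.050 for Cxcl2. The cause was not tested.

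Replicate numbers 6 and 7 occur in both groups, but nothing in the labels says that they mark pairs, and the deviations of same-numbered libraries from their group means correlated at 0.14 and -0.072 across genes, which are not independent replicates. With the number as a replicate block, 14 members were called higher, 8 lower and 4826 genes in all; the call lost was Ccl4 (edgeR adjusted p = 0.0558, within a range of 0.00967 to 0.0939 over its 16 alternatives). Depth limits the least abundant members, and Cxcl2, Cxcr2 and Cx3cl1 rest on 5 to 36 counts per library. No label gives a batch, and one that went with genotype could not be told from it.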
